A study of Homo sapiens with 9 samples.

Results

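The late response of Huh7 cells to PGG was read from 6 of the 9 expression arrays of the series, chosen by the sample titles: 3 arrays of cells exposed for 48 hours to PGG, dissolved in PBS and used at 0.1 mg/mL, and 3 arrays of cells exposed for 48 hours to PBS, the solvent, alone. PGG is penta-O-galloyl-glucopyranoside, a plant polyphenol in which a glucose core carries gallic acid groups. Huh7 is an established human hepatocellular carcinoma cell line that still makes many liver products. The remaining 3 arrays, of cells exposed to the same dose for 6 hours, entered the estimate of the spread and are set beside the late values where stated. The titles of the PBS arrays say 48 hours, which is used here, whereas their descriptions say 0 hours of treatment. The arrays are titled as biological replicates, and the p-values measure only the spread between these arrays. The study asked how PGG raises the liver enzyme gene GNMT, and the arrays were its survey of the genes that answer to PGG.

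Liver cancer cells in culture divide, secrete plasma proteins and keep parts of hepatocyte metabolism. When nutrients, oxygen or growth signals run short, cells are known to slow the making of nucleotides, ribosomes and mitochondria, to raise glycolysis and recycling by autophagy, and to leave the cell cycle. The lists of genes described below cover these functions and others, such as interferon, sterol, junction and tubulin genes. Whether a shortage of this kind had a part in the late response was not tested. A list is a set of genes known to work together, and it is described by how many of its measured members changed and by the median of their differences. Each gene is represented by 1 probe set, a group of short probes on the array. A level is a log2 value, on which a difference of 1 is a doubling, and levels of different probe sets are not compared with each other. A gene is said to rise or fall where the adjusted p of limma was under 0.05, and to do so 2-fold where its log2 difference also reached 1.

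Markers of the liver lineage changed gene by gene. ALB, encoding albumin, stood at 13.54, 13.53 and 13.54 on the PBS arrays and at 13.44, 13.46 and 13.44 on the PGG arrays, and AFP, encoding the fetal serum protein of hepatoma cells, between 13.06 and 13.38 on all 6. Of 11 measured lineage markers 5 rose and 4 fell, with a median difference of -0.04. Among 15 markers of stromal, endothelial and blood cells 3 rose and 5 fell. LUM, a matrix proteoglycan, rose by 3.27 and CD14, a monocyte receptor that hepatocytes also make, fell by 1.37. PECAM1, an endothelial marker, rose by 0.46 and PDGFRB, a stromal one, by 0.50, while CD3E, of T cells, fell by 0.30 and COL3A1 fell by 0.32. PTPRC, the general leukocyte marker, was between 3.27 and 3.39 and KDR, an endothelial receptor, between 3.14 and 3.37 on the 6 arrays. In bulk RNA a smaller number of cells and less RNA per cell cannot be told apart, and every array was brought to a median between 5.16 and 5.20.

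The control probe sets that lie at the 5′ and the 3′ end of ACTB, the actin transcript, which serve as a check of RNA quality, differed between the groups. The 5′ probe set read 11.79, 11.33 and 11.38 on the PBS arrays and 9.90, 8.19 and 9.39 on the PGG arrays. The 3′ probe set read between 12.75 and 12.90 on PBS and between 12.04 and 12.22 on PGG. For GAPDH the 5′ probe set was 11.56 on PGG replicate 2 and between 13.05 and 13.33 on the 8 other arrays of the series. These controls moved with the treatment, most on PGG replicate 2, and their part in the results below was not tested. Medians of gene lists are therefore also given by array, and calls without replicate 2 are in the closing section.

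**Figure D1:**
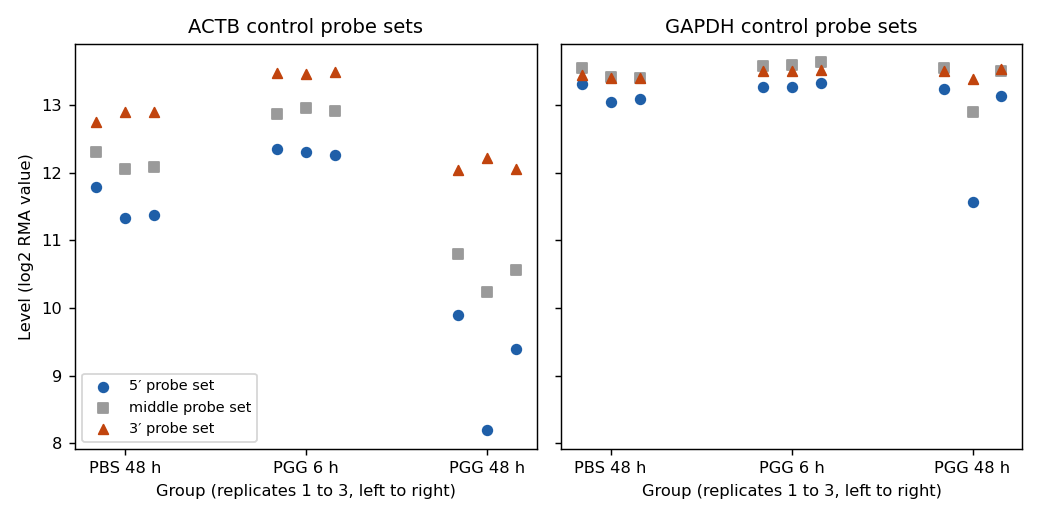
Levels (log2 RMA value, vertical axis) of the 5′, middle and 3′ control probe sets of ACTB and GAPDH on each of the 9 arrays, by group (horizontal axis), with 1 point per array and no averaging. The 5′ probe set of ACTB is lower on all 3 PGG 48 h arrays than on any other array, and that of GAPDH is low on PGG 48 h replicate 2 alone, at 11.56.

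Across 19775 genes, 4726 rose and 4812 fell at 48 hours, or 23.9% and 24.3% of those tested, and the median difference was -0.02. At 2-fold 1343 rose (6.79%) and 1163 fell (5.88%), and in each of these genes the values of the groups did not overlap. With 3 arrays per group this says little, since the groups did not overlap in 51.8% of all genes. At the study's threshold for probe sets, which asks for a log2 difference beyond 1.5 with an adjusted p under 0.005, limma gave 1231 higher (2.25%) and 1010 lower (1.85%) of 54613. The largest changes were rises, since 60 genes rose by 3 or more on the log2 scale and 21 fell by as much.

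By chromosome, the genes that fell 2-fold were 2.95% of the 1320 on chromosome 19 and 7.48% of the 401 on chromosome 13. Of 10523 genes with more than 1 probe set, 2468 had a 2-fold call and 26 of these were called in both directions by different probe sets, MDM2, SRSF1 and GSTA1 among them.

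**Figure D2:**
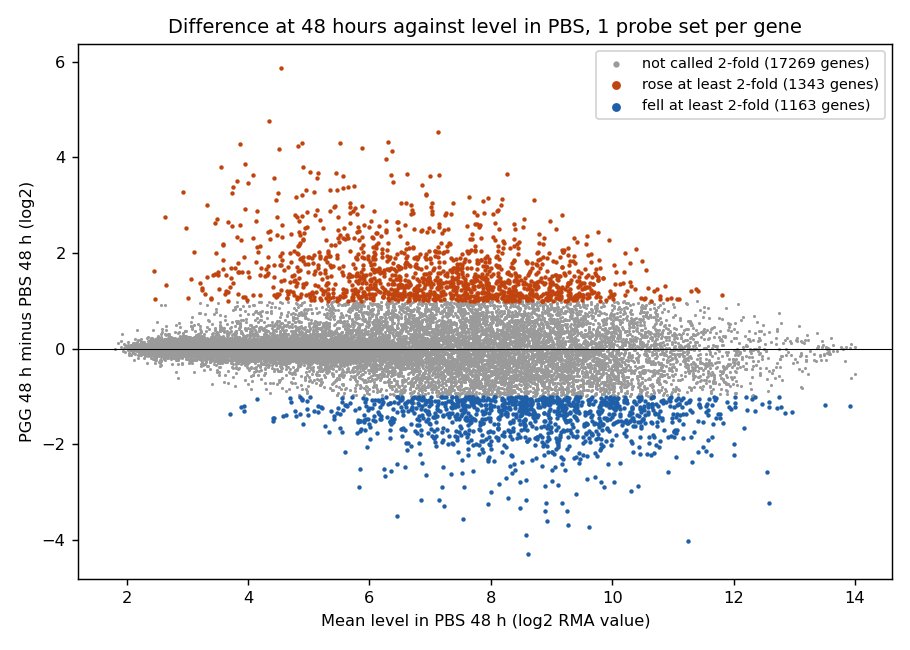
Difference PGG 48 h minus PBS 48 h (log2, vertical axis) of 19775 genes against the mean level in PBS (log2 RMA value, horizontal axis), with 1 point per gene. The 1343 genes that rose 2-fold lie above 1 on the vertical axis and the 1163 that fell 2-fold below -1, and a gene near the low end of the array in PBS could not read much lower.

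The gene with the largest rise was ENO2, which encodes the neuronal form of the glycolytic enzyme enolase. It stood at 4.20, 4.58 and 4.84 on the PBS arrays and at 10.27, 10.49 and 10.45 on the PGG arrays, a difference of 5.86 (adjusted p = 5.2e-11 from limma) from PBS levels close to the low end of the array. PFKFB4, a kinase that sets the rate of glycolysis, went from 7.22, 7.12 and 7.06 to 11.69, 11.67 and 11.66, a difference of 4.54. The groups did not overlap in either gene, which was a condition for the largest changes named here. C11orf96, whose product is little described, rose from 4.03, 4.41 and 4.61 to 9.19, 9.07 and 9.07. LOXL2, a lysyl oxidase that cross-links collagen, rose from 6.17, 6.43 and 6.34 to 10.66, 10.63 and 10.60. RORA, a nuclear receptor of metabolism and the circadian clock, rose from 5.44, 5.41 and 5.67 to 9.74, 10.12 and 9.58. Levels within a group were close in these genes compared with the distance between the groups.

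The other 7 of the 12 largest rises spanned several functions. CREBRF, a regulator of the response to starvation, rose by 4.13, from between 6.29 and 6.46 to between 10.45 and 10.55. RNF183 and NEURL3, which encode ubiquitin ligases, rose by 4.29 and 3.97. YPEL4, of a small family of zinc-binding proteins, rose by 4.28, the zinc finger gene ZNF165 by 4.24, BEX5, of a family carried on the X chromosome, by 4.20 and PTPRR, a tyrosine phosphatase that acts on MAP kinases, by 4.18. In limma their adjusted p reached at most 2.1e-10. All 12 differed between PGG at 48 hours and PGG at 6 hours, in a contrast that uses the same PGG 48 h arrays by which they were chosen.

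Among the 12 largest falls stood genes of signalling, adhesion and liver function. DKK1, a secreted inhibitor of WNT signalling, fell from 8.63, 8.69 and 8.52 to 3.88, 4.93 and 4.12, a difference of -4.30. FOXQ1, a forkhead transcription factor, fell from 11.19, 11.26 and 11.29 to 7.30, 7.48 and 6.88. SLCO1B3, a hepatocyte uptake transporter of bile acids and drugs, fell from 8.39, 8.61 and 8.72 to 4.78, 4.77 and 4.47. HMGA2, an oncofetal chromatin protein, fell from 9.62, 9.74 and 9.49 to 5.81, 6.08 and 5.75. Of the 9 probe sets of HMGA2, 1 fell 2-fold and 0 rose 2-fold.

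FERMT1, which activates integrins, fell by 3.70, and VCAN, the matrix proteoglycan versican, fell by 3.61. F13B, a subunit of coagulation factor XIII, fell by 3.57, NT5E, the cell surface enzyme that makes adenosine, fell by 3.39 and NIBAN1, a stress-response protein, fell by 3.30. LRRC34 fell by 3.51, CYREN, a regulator of DNA end joining, fell by 3.40 and SANBR fell by 3.33. In limma the adjusted p of these falls reached at most 3.7e-09. In VCAN the levels at 48 hours and 6 hours did not pass the test of a difference (adjusted p = 0.64 from limma). The other 11 passed it, again with the PGG 48 h arrays by which they were chosen. Of the 24 genes 14 had more than 1 probe set, and of their 53 probe sets 33 were called 2-fold in the same direction and 0 in the opposite one. The 53 include the probe set by which each gene was chosen, whose call was fixed by that choice. The count was 1 of 4 in LOXL2 and 1 of 2 in C11orf96, CYREN and SANBR, but 5 of 5 in CREBRF and VCAN.

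The gene lists ranged from mostly rising to mostly falling, with many near 0 whose members went both ways. The highest medians belonged to hypoxia targets outside glycolysis (1.90), cholesterol genes (1.27) and protein trafficking from the ER to the Golgi (0.84), and the lowest to purine and pyrimidine synthesis (-0.78), ribosome biogenesis (-0.68) and NRF2 targets (-0.65). Cytosolic ribosomal proteins (0.03), tubulins (-0.03) and extracellular matrix (0.01) were among the lists near 0, and the latter pair held genes with large changes in both directions.

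**Figure D3:**
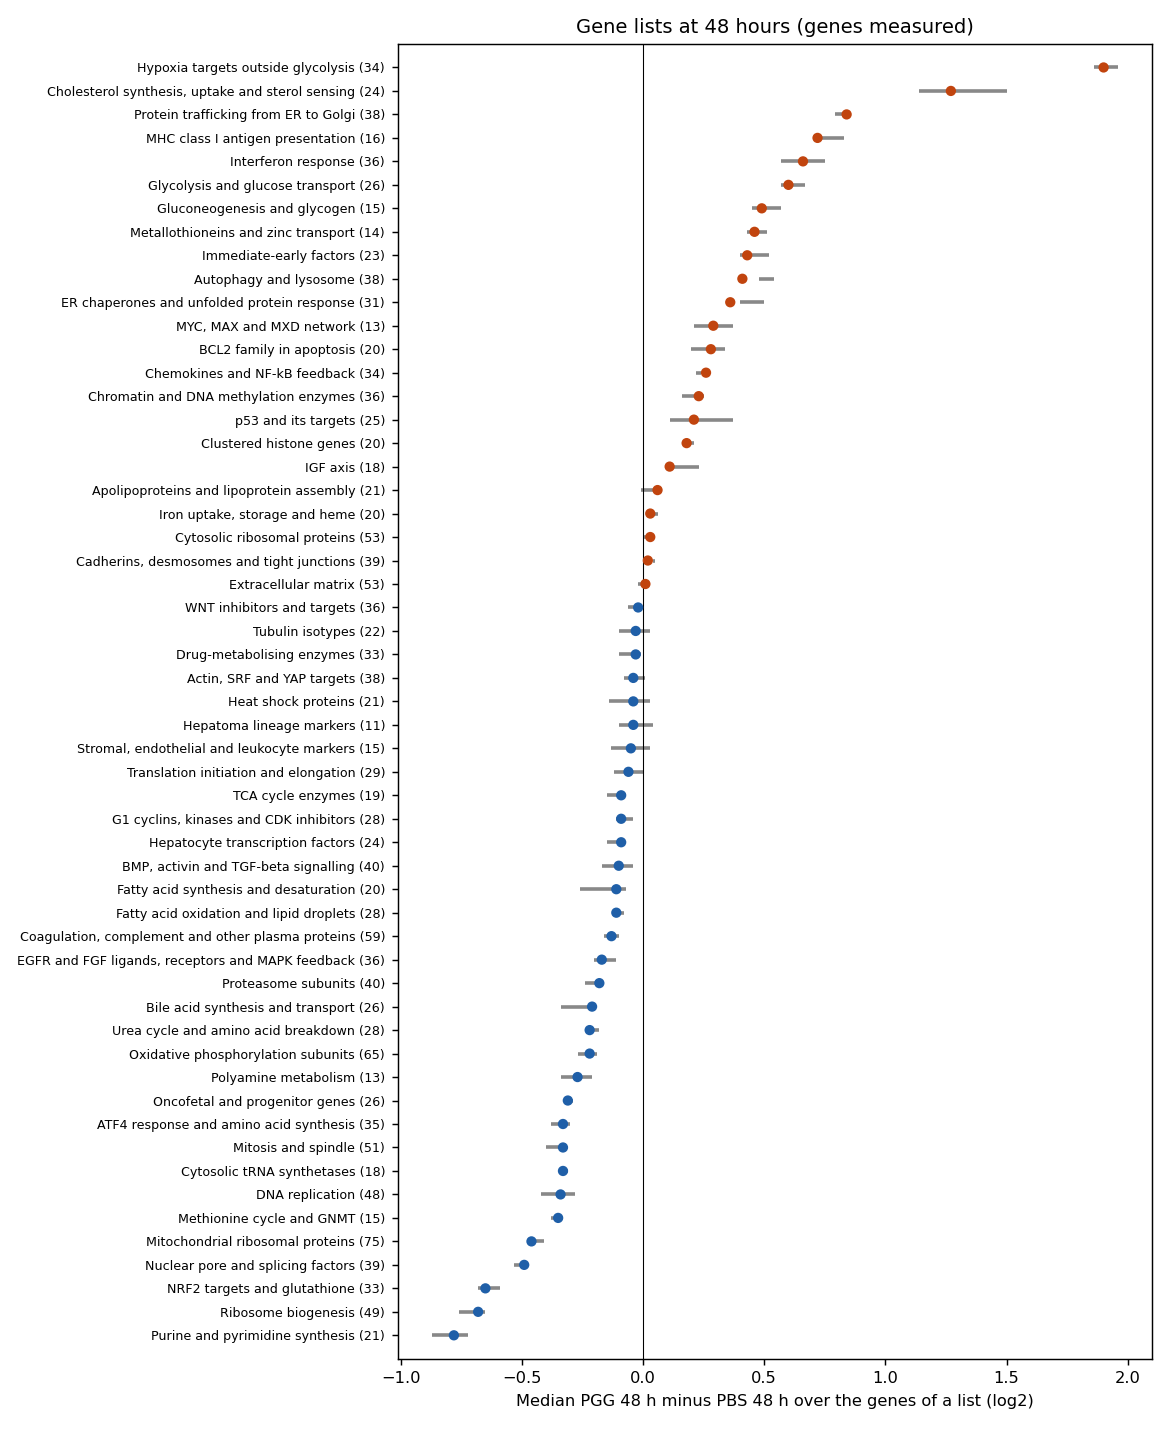
Median difference PGG 48 h minus PBS 48 h (log2, horizontal axis) of 55 gene lists, with the number of measured genes after each name. Points are medians of the differences of group means, and grey lines run from the lowest to the highest of the medians taken with each PGG array alone, so a point can lie outside its line. Hypoxia targets stand highest at 1.90 and purine and pyrimidine synthesis lowest at -0.78.

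Genes of the hypoxia response, which HIF transcription factors are known to induce when oxygen or iron is short, were the list with the highest share of rises. Of 34 measured, 32 rose and 1 fell, 27 of them rising 2-fold (79.4%, against 6.79% of all genes), and the median was between 1.86 and 1.96 by PGG array. NDRG1, a differentiation-related gene, rose from 8.14, 8.52 and 8.15 to 11.77, 12.07 and 11.95. P4HA2, a collagen prolyl hydroxylase, rose from 8.13, 8.35 and 8.09 to 11.25, 11.40 and 11.33. The groups were far apart in both, and with LOXL2 they were the leading rises of the list. DDIT4, an inhibitor of mTOR signalling, fell by 0.43, and STC2, a secreted glycoprotein, was at a difference of -0.28 and did not pass the test. The histone demethylase gene KDM3A rose 8.04-fold (adjusted p = 1.6e-10 from limma).

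In the glycolysis list, the isoforms of an enzyme did not move together. Of 26 genes 19 rose, 12 of them 2-fold, and 3 fell. Beside ENO2, ALDOC, an aldolase isoform, rose from 6.85, 6.82 and 6.91 to 10.37, 10.06 and 10.40. ENO1, the enolase of most tissues, stood between 12.67 and 12.78 on all 6 arrays with a difference of -0.01 that did not pass the test, and ALDOA rose by 0.60. The subunits of the rate-limiting enzyme phosphofructokinase moved apart, with differences of -1.89 for PFKM, -0.90 for PFKL and 1.00 for PFKP. LDHB, the lactate dehydrogenase subunit of oxidative tissue, fell by 0.43 and LDHA rose by 0.16. GAPDH, PKM and TPI1, further enzymes of the pathway, lay between -0.07 and 0.01 and did not pass the test.

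Genes that make and store glucose also rose. PCK1, the cytosolic enzyme that commits carbon to gluconeogenesis, went from 5.24, 5.39 and 5.71 to 9.11, 9.12 and 9.11, a difference of 3.67. Its mitochondrial counterpart PCK2 fell from 9.99, 10.06 and 10.02 to 8.41, 8.42 and 8.56. The coactivator PPARGC1A, which fasting is known to induce in liver, rose by 3.17 and PPP1R3C, a targeting subunit for glycogen synthesis, by 2.96. PYGL and PYGB, the phosphorylases that break glycogen down, fell by 1.10 and fell by 0.87. Of the 15 genes measured 8 rose and 4 fell, and G6PC1, which releases glucose from liver, was at 0.20 and did not pass the test.

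The promoters of these genes were searched for the core that HIF factors bind, ACGTG or GCGTG on either strand, in the 300 bases from 250 before to 50 after each start in RefSeq (GRCh38.p14). The table held a promoter for 15382 of the genes measured. The core was present in 21 of 25 promoters of the hypoxia list (84.0%), in 64.2% of genes that rose 2-fold, in 64.3% of genes that fell 2-fold and in 56.4% of all genes. Other lists searched ran from 33.3% for interferon genes to 94.3% for trafficking from ER to Golgi. The share was 66.7% for glycolysis and 85.7% for ribosome biogenesis, whose genes mostly fell, so it is not particular to hypoxia targets. The 21 genes of the hypoxia list with the core had a median difference of 1.60 and the 4 without it one of 2.34. These promoters have a high GC content, with a median of 68.0% in the hypoxia list and 63.0% in all genes. Those of ENO2, ALDOC and KDM3A are shown because their genes rose and a core stood in the window, with the core in capitals.
ENO2 (chr12:6914330-6914629, plus strand): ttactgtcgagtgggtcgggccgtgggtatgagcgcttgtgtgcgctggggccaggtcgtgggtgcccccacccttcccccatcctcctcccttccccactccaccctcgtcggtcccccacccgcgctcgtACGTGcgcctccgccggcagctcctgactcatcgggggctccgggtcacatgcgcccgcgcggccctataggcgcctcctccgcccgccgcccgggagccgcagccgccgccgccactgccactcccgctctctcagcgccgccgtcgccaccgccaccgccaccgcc
ALDOC (chr17:28576846-28577145, minus strand): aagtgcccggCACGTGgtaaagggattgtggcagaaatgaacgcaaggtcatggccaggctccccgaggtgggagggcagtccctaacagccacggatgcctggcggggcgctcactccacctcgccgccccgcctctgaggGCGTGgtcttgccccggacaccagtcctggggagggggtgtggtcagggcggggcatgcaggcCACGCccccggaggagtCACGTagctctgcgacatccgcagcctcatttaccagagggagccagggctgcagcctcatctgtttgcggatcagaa
KDM3A (chr2:86441121-86441420, plus strand): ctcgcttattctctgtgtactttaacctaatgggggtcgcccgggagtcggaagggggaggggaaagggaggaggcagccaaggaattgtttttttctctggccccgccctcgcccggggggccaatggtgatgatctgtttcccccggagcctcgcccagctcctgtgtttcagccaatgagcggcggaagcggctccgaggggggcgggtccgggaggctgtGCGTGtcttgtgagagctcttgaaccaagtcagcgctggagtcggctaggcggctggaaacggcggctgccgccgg
In the ALDOC window the capitals CACGTG are a core on both strands at once. A match is a run of letters and no evidence of binding.

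Sterol genes rose as a group, whereas those that build fatty acids and triglycerides were split. Of 24 genes of cholesterol synthesis, uptake and sensing 18 rose, 15 of them 2-fold, and 3 fell. INSIG1, a sensor of sterols in the ER, rose from 8.10, 7.98 and 8.05 to 10.79, 10.95 and 10.83. DHCR7, the last enzyme of the pathway, rose from 8.55, 8.45 and 8.62 to 11.60, 10.81 and 11.36. STARD4, a sterol carrier, rose from 8.02, 8.06 and 8.14 to 10.32, 10.43 and 10.27. PGG replicate 2 was the lowest of the PGG arrays in DHCR7 but not in the other 2. In MVD, a synthesis enzyme, the PGG arrays read 7.34, 5.12 and 6.78 against 5.51, 5.44 and 5.29, and the difference did not pass the test (adjusted p = 0.063 from limma).

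SCAP, which escorts the sterol-regulated transcription factors, fell by 1.14, PMVK fell by 0.23 and the sterol exporter ABCG1 fell by 0.22, a call that was lost when only the 6 arrays were fitted. Among 20 genes of fatty acid synthesis 8 rose and 7 fell. ACSS2, which turns acetate into acetyl-CoA, rose from 6.56, 6.81 and 6.67 to 9.73, 9.71 and 9.62, and LPIN1, a phosphatase of glycerolipid synthesis, rose by 2.12. The acyltransferases of triglyceride synthesis fell, with differences of -1.92 for GPAM, -1.82 for DGAT1 and -1.46 for DGAT2. FASN, the fatty acid synthase, was at -0.56 and did not pass the test. In fatty acid oxidation EHHADH fell by 1.96, ECI1 fell by 1.82 and DECR1 fell by 1.58, whereas CPT1A, the gate to mitochondrial oxidation, rose by 1.09 and its regulator PPARA by 1.18.

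Genes of the secretory pathway and of recycling rose. In the traffic from ER to Golgi 31 of 38 genes rose, 12 of them 2-fold, and 2 fell. MIA3, which loads large cargo such as collagen, rose from 6.78, 6.53 and 6.51 to 8.67, 8.78 and 8.65. GOLGA5, a golgin that tethers vesicles, rose by 1.93 and KDELR3, a receptor that returns ER proteins, by 1.88. All 4 golgins of the list rose 2-fold, and 11 of the 12 genes of the COPII coat, which buds vesicles from the ER, rose, 5 of them 2-fold. COPG2, a coat subunit of the return route, fell by 1.56, and COPZ1 fell by 0.45.

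Genes of the ER stress response changed in both directions. EIF2AK3, the PERK kinase that slows translation, rose from 8.85, 9.06 and 9.01 to 11.61, 11.71 and 11.61. DNAJB9, a cochaperone, rose by 2.00 and HERPUD1, of ER-associated degradation, by 1.74. HSPA5, the main ER chaperone BiP, rose from 12.38, 12.40 and 12.36 to 12.93, 12.92 and 12.97. XBP1, a transcription factor of the response, fell by 1.00, RCN1 fell by 1.33 and DNAJC10 fell by 1.10. Of the 31 genes 18 rose and 6 fell. DDIT3, the stress factor CHOP, rose from 8.10, 8.17 and 8.07 to 10.23, 10.27 and 10.29, although the list of ATF4 targets and amino acid synthesis had 20 falls and 10 rises among 35, with differences of -2.22 for ALDH1L2, a folate enzyme, -1.92 for CBS and -1.90 for BCAT1.

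The element that ER stress factors are known to use, CCAAT followed after 9 bases by CCACG on either strand, stood in 6 of 28 promoters of the ER list (21.4%) and in 0.104% of all genes. Its 6 holders were HSPA5, HSP90B1, CALR, CANX, CRELD2 and XBP1, of which 3 rose and 2 fell. The HSPA5 promoter is shown as the one with the best known element, in capitals.
HSPA5 (chr9:125241294-125241593, minus strand): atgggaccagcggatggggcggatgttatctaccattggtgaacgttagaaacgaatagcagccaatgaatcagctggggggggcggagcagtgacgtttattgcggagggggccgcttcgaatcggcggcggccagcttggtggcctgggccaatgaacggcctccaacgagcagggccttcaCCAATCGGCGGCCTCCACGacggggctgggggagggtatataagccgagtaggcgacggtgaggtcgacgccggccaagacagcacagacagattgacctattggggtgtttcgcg
HERPUD1 and DNAJB9, with larger rises, did not hold these letters in the window.

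Autophagy and lysosome genes had 25 rises, 11 of them 2-fold, and 4 falls among 38. WIPI1, which marks the forming autophagosome, rose from 7.04, 7.10 and 6.82 to 9.48, 9.49 and 9.58. ATG14, a subunit of the kinase complex that starts the membrane, rose by 2.11 and LAMP2, of the lysosomal membrane, by 1.74. The cargo receptor SQSTM1 fell by 0.70, ATG7 fell by 0.66 and ATG4C fell by 1.40. The kinase ULK1 and the membrane protein MAP1LC3B, defining members of the list, rose by 1.24 and 1.25.

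Genes that supply growth fell together. In purine and pyrimidine synthesis 18 of 21 genes fell, 9 of them 2-fold (42.9%, against 5.88% of all genes), and 0 rose. NME1, a nucleoside diphosphate kinase, fell from 12.56, 12.53 and 12.56 to between 9.91 and 10.01. CTPS1, which makes CTP, fell from 8.25, 8.41 and 8.30 to 6.03, 6.23 and 5.35. APRT, of adenine salvage, fell from 9.33, 9.46 and 9.55 to 7.39, 7.10 and 7.33. IMPDH1, GMPS and PRPS2 lay between -0.10 and 0.06 and did not pass the test.

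Ribosome biogenesis had 35 falls, 14 of them 2-fold, and 4 rises among 49 genes. RRS1, needed to mature the large ribosomal subunit, fell from 9.68, 9.70 and 9.78 to 7.09, 6.96 and 7.09, UTP20, a processing factor of the small subunit, fell by 2.42, and MRTO4 fell by 1.92. POLR1D, a subunit that polymerases I and III share, rose by 0.85, and NOB1 by 0.79. The proteins of the ribosome itself did not follow. Of 53 cytosolic ribosomal protein genes 15 rose and 5 fell, 0 of them 2-fold in either direction, with a median of 0.03 and a range from -0.59 for RPL36 to 0.76 for RPL36A.

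Mitochondrial ribosomal proteins, in contrast with the cytosolic ones, had 55 falls and 10 rises among 75 genes. MRPL24, of the large subunit, fell from 9.84, 9.66 and 9.76 to 7.46, 7.42 and 7.63. MRPL12 fell from 9.47, 9.53 and 9.54 to 8.15, 7.01 and 7.81, with PGG replicate 2 the lowest, and MRPL39 fell by 1.81. MRPL55 rose by 0.86 and MRPL2 by 0.68. Both subunits took part, with 33 falls among 48 genes of the large and 22 among 27 of the small subunit. In the respiratory chain 34 of 65 genes fell and 10 rose, against 24.3% of all genes falling. By complex, 12 of 15 genes of ATP synthase fell and 0 rose, 15 of 27 of complex I fell and 4 rose, 1 of 3 of complex II fell and 2 rose, 3 of 7 of complex III fell and 1 rose, and 3 of 12 of complex IV fell and 3 rose.

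Factors that charge tRNA, splice and export RNA were lower as well. Of 18 cytosolic tRNA synthetase genes 12 fell and 2 rose, with differences of -2.53 for VARS1, -1.96 for FARSB and -1.37 for YARS1. The nuclear pore genes of the list had 14 falls and 0 rises among 16, with NUP88 falling from 9.18, 9.07 and 9.09 to 7.08, 7.20 and 7.02. Over all 26 measured genes with the symbol stem NUP, 19 fell and 2 rose, 1 of them 2-fold. Among 23 splicing genes 14 fell and 5 rose. HNRNPA2B1, an RNA-binding protein, fell by 2.05 and its relative HNRNPA1 rose by 1.04, a rise that was lost when all its probe sets were averaged (-0.02). In the making of polyamines SRM fell by 1.71 and ODC1, the first enzyme, fell by 1.45.

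MYC, a transcription factor known to act on growth genes, was at 11.78, 11.60 and 11.57 in PBS and at 9.74, 9.97 and 9.67 under PGG. It was 3.62-fold lower (adjusted p = 4.1e-09 from limma), and its part in the falls above was not tested. MXD1, a partner of MAX that opposes MYC, rose from 8.30, 8.32 and 8.47 to 9.90, 10.07 and 10.19, and MAX rose by 1.02 and MXI1 by 1.00. MYCN and MYCL were at -0.10 and -0.19 and did not pass the test. The E-box that MYC and MAX bind, CACGTG, was found in 15 of 42 promoters of ribosome biogenesis genes (35.7%) and in 5 of 19 of nucleotide synthesis (26.3%), against 8.90% of all genes. It is its own reverse complement, and each E-box is also counted as a hypoxia core. Lists that mostly rose held the E-box too, in 7 of 25 promoters of hypoxia targets and 5 of 21 of sterol genes (23.8%). Autophagy and lysosome genes held it in 7 of 34 (20.6%). The other lists searched ran from 7.41% for interferon genes to 14.3% for the ER list. A share above that of all genes was therefore not particular to lists that fell. Among genes that fell 2-fold 13.6% held the E-box, and among genes that rose 2-fold 12.8%. Of the 15 ribosome biogenesis genes with an E-box 14 fell and 0 rose, and of the 27 without 17 fell and 4 rose.

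Cell cycle genes moved in both directions. Of 51 genes of mitosis 31 fell, 14 of them 2-fold, and 11 rose, 0 of them 2-fold. CDC20, which triggers anaphase, fell from 10.73, 10.69 and 10.65 to 8.45, 8.67 and 8.40, ASPM, a spindle pole protein, fell by 2.08, and BUB1B, of the spindle checkpoint, fell by 1.99. PLK1, a mitotic kinase, fell from 7.57, 7.70 and 7.62 to 6.12, 5.41 and 5.99, while CDK1, the central mitotic kinase, was at -0.12 and did not pass the test. NCAPH and TTK rose by 0.90 and 0.84. In DNA replication 27 of 48 genes fell and 10 rose, with 5 of 7 MCM helicase genes falling and CDT1, which loads them, rising by 1.09.

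Of 28 G1 cyclins, kinases and their inhibitors 9 rose, 11 fell and 8 did not pass the test. CDKN1C, encoding the inhibitor p57, rose from 6.37, 6.38 and 6.41 to 9.89, 9.87 and 9.88, 11.3-fold higher. CDKN1A, encoding p21, rose by 1.36 and CDKN1B, encoding p27, by 0.76, whereas CDKN2A and CDKN2B, encoding other inhibitors, were at -0.08 and 0.01 and did not pass the test. CCNG2, an atypical cyclin of arrested cells, rose by 3.24 and CCNE2 by 1.74, whereas CCND1 fell from 9.29, 9.39 and 9.28 to 7.57, 7.32 and 7.75 and CDK6 fell by 1.49. CCND3 was at 7.10, 7.18 and 7.33 in PBS and 7.14, 7.20 and 7.10 under PGG and did not pass the test (adjusted p = 0.55 from limma). Of 20 histone genes 10 rose, 6 of them 2-fold, and 3 fell, H2BC5 rising from 8.38, 8.23 and 8.53 to 10.66, 10.88 and 10.47. Near-identical histone, tubulin, HLA and metallothionein genes can share probes, and their values are uncertain for that reason.

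In the lists of cell death GADD45B rose by 2.51 and the BCL2 relatives BNIP3L, BIK and BNIP3 rose by 2.43, 2.34 and 2.27, whereas BAX, a pore-forming executor, fell by 1.69 and the protective BCL2L1 fell by 1.25. BAX read 5.61, 4.95 and 5.73 under PGG and 7.40, 6.79 and 7.16 in PBS, with replicate 2 the lowest of both groups. Of 25 p53 targets 12 rose and 7 fell.

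Interferon-stimulated genes rose without a rise of every member. Of 36 measured, 23 rose, 16 of them 2-fold (44.4%), and 1 fell. Their median of 0.66, between 0.57 and 0.75 by PGG array, became 1.34 over the members with a mean level of at least 6. That mean included the PGG 48 h arrays, so a member could pass because it rose. The larger median is therefore no support for the rise. IFIT1, which binds viral RNA, rose from 3.22, 3.42 and 3.32 to 6.52, 5.85 and 6.59. GBP2, an interferon-induced GTPase, rose from 7.40, 7.47 and 7.18 to 10.12, 10.14 and 10.27. ISG15, a ubiquitin-like modifier, rose from 8.32, 8.49 and 8.36 to 10.93, 10.72 and 11.05. Replicate 2 was the lowest PGG array for IFIT1 and ISG15, and no PGG array reached the PBS levels of these 3. IFIT5 fell by 0.72, and RSAD2, IFI27 and IFI44L, defining members, lay between -0.20 and 0.07 and did not pass the test.

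Genes of antigen presentation by MHC class I mostly rose beside them, with 12 rises and 2 falls among 16 genes. PSMB9, a subunit of the immunoproteasome, rose from 6.08, 6.24 and 6.04 to 8.50, 8.30 and 8.84, TAP1, a peptide transporter, by 1.57 and the peptidase ERAP2 by 1.43. TAP2 fell by 0.43 and ERAP1 fell by 0.60, a call that was lost when only the 6 arrays were fitted. Among 40 proteasome genes as a whole 20 fell and 10 rose. Chemokines and NF-kB genes had 19 rises and 6 falls among 34, led by IL1RN, the antagonist of interleukin 1, which rose by 2.03, and REL by 1.73, while CXCL1 fell by 1.22.

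The interferon response element GAAA followed after 2 bases by GAAA, searched on both strands, was present in 18 of 27 promoters of the interferon list (66.7%), in 5.07% of genes that rose 2-fold, in 2.21% of genes that fell 2-fold and in 2.95% of all genes. The promoters of the list had a median GC content of 48.3%, below the 63.0% of all genes. The 18 genes with the element had a median difference of 1.04, and the 9 without it one of 0.23. The promoters of IFIT1 and ISG15 are shown because both genes rose and each held 2 matches, in capitals. In IFIT1 the matches lie on the opposite strand, and in ISG15 they overlap.
IFIT1 (chr10:89392373-89392672, plus strand): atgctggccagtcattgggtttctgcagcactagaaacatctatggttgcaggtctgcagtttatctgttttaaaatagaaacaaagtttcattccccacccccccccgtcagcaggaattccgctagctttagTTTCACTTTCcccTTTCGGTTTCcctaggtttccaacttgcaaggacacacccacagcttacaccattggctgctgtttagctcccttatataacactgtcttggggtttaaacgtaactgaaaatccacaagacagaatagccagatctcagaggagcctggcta
ISG15 (chr1:1013247-1013546, plus strand): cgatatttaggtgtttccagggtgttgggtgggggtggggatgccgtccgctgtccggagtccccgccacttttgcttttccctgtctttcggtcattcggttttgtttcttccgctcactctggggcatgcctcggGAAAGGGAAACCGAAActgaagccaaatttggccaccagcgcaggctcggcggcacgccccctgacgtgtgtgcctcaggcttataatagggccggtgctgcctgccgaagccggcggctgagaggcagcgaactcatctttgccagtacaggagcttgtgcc

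Genes of the defence against oxidants were mostly lower. Of 33 NRF2 targets and glutathione genes 24 fell, 10 of them 2-fold (30.3%), and 3 rose. GSTA1, a glutathione transferase of liver, fell from 10.06, 10.06 and 9.99 to 7.08, 7.50 and 7.15 on its brightest probe set, and rose by 1.27 on its other one. GSTA4 fell by 1.93 and the exporter ABCC3 fell by 1.90. HMOX1, which degrades heme, rose from 5.95, 6.22 and 6.17 to 7.38, 7.24 and 7.49 and was the only member to rise 2-fold. NFE2L2, the gene of NRF2 itself, and its inhibitor KEAP1 were at 0.08 and -0.10 and did not pass the test. Of 9 metallothionein genes, whose proteins bind zinc and copper, 7 rose and 0 fell, led by MT1M at 1.66 and MT2A at 1.03. Among iron genes CP, the ferroxidase ceruloplasmin, fell by 2.19, FECH, which inserts iron into heme, fell by 1.84, HAMP, the hormone hepcidin, fell by 1.71 and ALAS1, the first enzyme of heme synthesis, rose by 1.41.

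Products of the hepatocyte changed gene by gene. Of 59 coagulation, complement and other plasma protein genes 24 fell and 17 rose. Complement C5 fell from 9.41, 9.58 and 9.23 to 6.23, 6.68 and 6.22, and the coagulation factor F5 fell by 2.40. LRG1, an acute-phase glycoprotein, rose by 2.31, IGFBP1 by 1.51 and C1S by 1.40. Among apolipoproteins APOA4 rose from 5.44, 5.53 and 5.10 to 8.24, 8.23 and 8.23 and APOC3 by 1.93, whereas APOB, of very low and low density lipoprotein, fell from 12.02, 12.05 and 11.94 to 10.05, 10.09 and 9.89 and the paraoxonase PON1 fell by 2.99.

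Of 26 bile acid genes 13 fell, 10 of them 2-fold (38.5%, against 5.88% of all genes), 5 rose and 8 did not pass the test, with a median of -0.21. SLC27A2, which activates long fatty and bile acids, fell by 2.21, and the ileal hormone FGF19, which hepatoma cells also make, fell by 1.80. The bile acid conjugating enzyme BAAT rose by 1.21 and the exporter subunit SLC51A by 1.34, while CYP7A1, the rate-limiting enzyme, was at -0.07 and did not pass the test. In amino acid breakdown HGD and FAH, enzymes of tyrosine, fell, with differences of -2.27 and -1.95. ADH6, an alcohol dehydrogenase, fell by 2.64, and CYP3A5, a drug-metabolising enzyme, rose by 1.36. The transcription factors PROX1 and CEBPA fell, with differences of -1.84 and -1.61, NR0B2 rose by 1.57, and FOXA2 was at -0.04 and did not pass the test.

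GNMT, a liver enzyme that consumes the methyl donor S-adenosylmethionine, was at 4.25, 4.09 and 3.84 in PBS and 4.61, 4.29 and 4.63 under PGG, a rise of 0.45 (adjusted p = 0.0057 from limma), close to the low end of the array. MAT2A, which makes the donor, fell from 10.46, 10.67 and 10.69 to 8.71, 8.89 and 8.67, PEMT, which spends it on phospholipid, fell by 1.65, and NNMT, which spends it on nicotinamide, rose by 1.81. Of 15 genes of the methionine cycle 9 fell and 3 rose. Among chromatin enzymes 18 of 36 rose and 11 fell. HDAC5 and HDAC9, histone deacetylases, rose by 2.64 and 2.56, while HDAC2 fell by 1.70 and UHRF1, which guides DNA methylation, fell by 1.11.

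Oncofetal and progenitor genes had 15 falls and 4 rises among 26. IGF2BP1 and IGF2BP3, RNA-binding proteins of fetal liver, fell, with differences of -1.36 and -1.12, beside HMGA2. PROM1, the surface marker CD133, rose from 6.48, 6.29 and 6.27 to 9.95, 10.14 and 9.86, and KRT19, a bile duct keratin, by 2.03.

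Signalling genes showed some of the largest single changes in lists whose medians were near 0. The ID genes, direct targets of BMP signalling that block differentiation, fell in 3 of 4 members, ID1 from 12.63, 12.50 and 12.60 to 9.73, 8.55 and 9.74, with differences of -2.78 for ID4 and -2.20 for ID3, whereas ID2 rose by 0.73. PGG replicate 2 was the lowest array for ID1 but not for ID4. INHBE, an activin subunit of liver, rose by 1.52. In the WNT list LGR5, a stem cell receptor, fell from 5.78, 5.78 and 5.92 to 2.72, 3.04 and 3.02, ZNRF3 fell by 1.89, and DKK3, a relative of DKK1, rose from 4.99, 4.79 and 5.05 to 7.35, 7.67 and 7.40. AXIN2, NKD1 and SP5, common readouts of the pathway, lay between -0.18 and 0.08 and did not pass the test.

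Growth factor genes were also divided. NRG1, a ligand of ERBB receptors, fell by 2.12 and PHLDA1 fell by 2.05, while HBEGF, an EGFR ligand, rose by 2.01 and the transcription factor ETS1 rose from 3.88, 3.90 and 4.24 to 7.48, 7.36 and 7.55. Of 23 immediate-early factors 17 rose and 3 fell, with NR4A2, an orphan nuclear receptor, rising from 5.26, 4.98 and 5.22 to 8.53, 9.21 and 8.73, FOS by 2.58 and NR4A3 by 2.11. JUN was at 0.09 and did not pass the test. IGFBP3, a binding protein of insulin-like growth factors, rose from 7.98, 8.27 and 8.06 to 10.95, 11.08 and 10.92, and the insulin receptor substrates moved apart, with differences of 1.86 for IRS2 and -1.46 for IRS1.

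Matrix, junction and cytoskeletal genes changed in both directions. THBS1, thrombospondin, fell from 9.12, 8.75 and 8.84 to 5.78, 5.65 and 5.59 and LAMB1 fell by 2.15, whereas LUM rose from 3.09, 2.70 and 2.99 to 6.15, 6.12 and 6.31 and the protease inhibitor TIMP2 rose by 2.79. The YAP target CCN2 fell by 2.90. The gap junction gene GJA1 fell by 2.23 and N-cadherin, CDH2, fell by 1.36, while the tight junction gene CLDN3 rose by 1.77 and JUP by 1.63. E-cadherin, CDH1, rose by 0.36 and vimentin, VIM, by 1.21. Among 22 tubulin and microtubule genes 8 rose and 8 fell, with TUBB2B rising from 8.19, 8.19 and 8.18 to 10.08, 10.20 and 10.28 and a difference of -2.57 for MAP2, which binds microtubules.

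Some small families, chosen after their values were seen, held many changed members. Of 9 protein arginine methyltransferase genes 6 fell, 4 of them 2-fold, and 2 rose. PRMT3 fell from 8.86, 8.97 and 8.84 to 5.98, 6.02 and 6.03, PRMT6 fell by 2.83, CARM1 fell by 2.15, and PRMT1, the main enzyme of the family, read 9.84, 8.59 and 9.90 against 11.63, 11.01 and 11.23. PRMT2 and PRMT9 rose by 1.03 and 0.94, and PRMT8 was at -0.09 and did not pass the test. All 5 YPEL genes rose, from 1.00 for YPEL5 to 4.28 for YPEL4. Of 7 butyrophilin genes named BTN, surface proteins related to antigen recognition, 5 rose, from 0.81 for BTN2A2 to 3.27 for BTN3A3, and BTN1A1 and BTN2A3P were at -0.03 and -0.00 and did not pass the test. Of 131 families sharing a symbol stem with at least 15 measured genes, TIMM, subunits that import proteins into mitochondria, had the lowest median (-1.0, with 9 of 15 falling and 1 rising) and GOLGA the highest (0.85, with 9 of 15 rising and 1 falling).

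Levels at 48 hours were compared with those at 6 hours, a test of size that also passes where a change of the same direction had grown. Of the 1343 genes that rose 2-fold 1297 differed between PGG at 48 hours and PGG at 6 hours, and of the 1163 that fell 2-fold 1090 did so, by the test of that contrast in limma. Of all 19775 genes 9298 differed. The genes called 2-fold were chosen by the same PGG 48 h arrays that enter this contrast, so a higher share among them is partly built in. The comparisons with PBS at both times share the PBS arrays, and no PBS array at 6 hours was analysed. Of the 12 largest rises 7 and of the 12 largest falls 10 were already called at 6 hours, in either direction. Hypoxia targets had a median of 0.74 at 6 hours and 1.90 at 48 hours, and 32 of 34 genes differed between these times. For nucleotide synthesis the medians were 0.08 and -0.78, with 18 of 21 differing, for ribosome biogenesis -0.13 and -0.68, with 40 of 49, and for mitochondrial ribosomal proteins 0.12 and -0.46, with 65 of 75. Replication genes had a median of 0.65 at 6 hours and -0.34 at 48 hours, with 44 of 48 differing, and interferon genes -0.02 and 0.66, with 25 of 36. Amino acid genes of the ATF4 list stood at -0.94 and then at -0.33. MYC did not pass the test of a difference between the times (adjusted p = 0.57 from limma, differences of -1.79 and -1.86), and neither did PCK2 (-1.44 and -1.56) nor SLC2A1, a glucose transporter (1.29 and 1.40).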

How the data were processed

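Huh7 cells were profiled on human whole-genome 3′ expression arrays, 3 per group. The deposited values are log2 intensities that the authors made with RMA (background correction, quantile normalization and probe summary over all arrays) in Affymetrix Expression Console, version not given in the sources used here. They are rounded to 2 decimals, and the number of arrays limits their precision.

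Of 54675 probe sets 62 controls were set aside and 54613 tested. The platform annotation gave a single symbol for 41091 of them, more than 1 symbol for 1801 and no symbol for 11721. Each of 19775 genes was represented by the probe set with the highest mean over 9 arrays. Linear models with 1 mean per group over all 9 arrays were fitted in limma 3.58.1 (R 4.3.3) with moderated variances, and p-values were adjusted by Benjamini-Hochberg over all genes or all probe sets. Counts were made in Python 3.11.15 with pandas 2.3.3. Where a probe set of its own was absent, a gene was not analysed. Tested on simulated data for PGG 48 h against PBS 48 h over 19775 genes, the fit called 48 of 50 genes changed by 0.5 on the log2 scale, 50 of 50 changed by 1, and 13 of 19575 unchanged genes. The simulation used independent noise of the same size in each group and changed few genes. In the data 9538 genes were called, and the median spread was 0.0709 in PGG 6 h and 0.101 in PGG 48 h. The simulated counts therefore check the fit and do not give the error rates of the comparison itself.

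The text names the 12 genes that rose most and the 12 that fell most past the study threshold with groups that did not overlap, up to 3 rises and 3 falls of each list, defining members of a list that did not pass, isoforms compared, and genes the study names. The members and lists were chosen with earlier results of these data known. Promoter sequences are from RefSeq (GRCh38.p14). Alternatives were 6 arrays alone, a replicate block, each replicate left out, quantile normalization, median centring, array weights, variance trend, a filter on dim probe sets, the mean of all probe sets of a gene and the methods' t-test.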

Additional observations from a re-analysis of the deposited data

Results flagged for a closer look

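Of 322 named genes 9 were called in opposite directions, 2-fold at both times, and differed between PGG at 48 hours and PGG at 6 hours by the test of that contrast in limma. The early and late comparisons share the PBS arrays, and no PBS array at 6 hours was analysed. No array was set aside as outlying in the main fit. The array weights of limma, lower where an array departs from its group, ran from 0.422 for PGG 48 h replicate 2 to 1.65 for PGG 6 h replicate 3.

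Lower early and higher late were IGFBP1, an insulin-like growth factor binding protein, with -3.60 and 1.51 against PBS and 5.11 between the times (adjusted p = 9.1e-11 from limma), and SPINK1, a trypsin inhibitor, with -3.01 and 1.18 and a difference of 4.18. The tubulin genes TUBB2B (-2.15 and 2.00) and TUBA1A (-1.17 and 1.88) differed by 4.15 and 3.05 between the times. INHBE, an activin subunit, had -1.56 and 1.52 and a difference of 3.08, HAL, which breaks down histidine, -1.64 and 1.09 and a difference of 2.73, and ARG2, an arginase, -1.26 and 1.17 and a difference of 2.44. Higher early and lower late were CTPS1, which makes CTP, with 1.12 and -2.45 and a difference of -3.57, and UHRF1, which guides DNA methylation, with 1.12 and -1.11 and a difference of -2.23.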

How the results depend on the processing

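The counts of genes and probe sets past each threshold stayed within 1.5 times their value under every alternative. Leaving out 1 array at a time gave 4445 to 4673 genes higher and 4474 to 4903 lower, 1331 to 1401 and 1142 to 1188 at 2-fold, and 1230 to 1264 and 989 to 1042 probe sets at the study threshold. Of 2506 2-fold calls 2357 remained without PGG 48 h replicate 2, the fewest of the arrays left out, and 1719 (68.6%) when all probe sets of a gene were averaged. The methods' t-test gave 1057 and 820 probe sets. With the replicate number as a block, limma gave 1231 and 1012 probe sets, 4721 and 4793 genes, and 1344 and 1164 at 2-fold. Same-numbered PBS and PGG 48 h arrays correlated at 0.105, 0.112 and -0.0892 in their deviations from the group means, and differently numbered ones between -0.178 and 0.0599. With 3 arrays per group these values cannot decide whether a number marks a shared culture. The numbers were read as names in the main fit.

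With 1 array left out, list medians ranged from 1.83 to 1.92 for hypoxia targets, 1.21 to 1.47 for sterol genes, 0.57 to 0.66 for glycolysis, 0.38 to 0.54 for autophagy, 0.81 to 0.87 for trafficking, -0.72 to -0.62 for ribosome biogenesis, -0.51 to -0.42 for mitochondrial ribosomal proteins and -0.52 to -0.49 for pore and splicing genes. Quantile normalization gave -0.52 for mitochondrial ribosomal proteins, 0.06 for cytosolic ones and -0.53 for pore and splicing genes. Median centring gave 0.05 for cytosolic ribosomal proteins and 0.87 for trafficking, and array weights gave 0.49 for autophagy. Over probe sets with a mean of at least 6, which leaves fewer genes, the medians were 0.64 for gluconeogenesis, 0.60 for metallothioneins and zinc transport, 1.34 for interferon genes and 0.57 for autophagy. That mean included the PGG 48 h arrays, so a gene could pass this filter through its own rise. The mean of all probe sets gave 0.48 for glycolysis, 1.33 for hypoxia targets, 1.02 for sterol genes, -0.49 for mitochondrial and -0.05 for cytosolic ribosomal proteins, -0.91 for nucleotide synthesis, -0.74 for NRF2 targets, 0.24 for metallothioneins, 0.53 for interferon genes, 0.62 for MHC class I, -0.37 for pore and splicing genes and 0.61 for trafficking. The causes of these moves were not tested.

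Among 322 named genes under 14 alternatives, 16 lost their call at least once. ABCG1, ERAP1, GCLC, PRDX1 and JUND did so when only the 6 arrays were fitted, PMVK, GARS1, H3C8 and KLF10 when an array was left out, and ATG7, COL3A1, MAT2B, NDUFA2, POLR1D, RPL22 and SLC30A1 when all probe sets were averaged. The sign turned in 5, for CCND3 with values from -0.11 to 0.01 (without PBS 48 h replicate 3) when 1 array was left out, and with the mean of all probe sets to -0.02 for RRM2, -0.06 for CENPN, -0.02 for HNRNPA1 and -0.24 for PECAM1.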
